A study of Mus musculus with 4 samples.

Results

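The nuclear-encoded subunit genes of the mitochondrial respiratory chain and ATP synthase were examined in mouse retina at E13.5, in mid-gestation. Members were taken by gene symbol: Nduf genes for complex I, Sdh for complex II, Uqcr for complex III, Cox4 to Cox8 for complex IV and Atp5 for complex V, leaving out 2 symbols that mark pseudogenes. The pattern found 86 of the 25239 gene IDs in the tables, and 81 passed a filter of at least 1 TPM in at least 2 libraries (TPM, a transcript level scaled to transcript length and to the library's total). The RNA sequencing series holds 2 libraries of control retina and 2 labelled Isl1cKO, from retinae described as lacking the LIM-homeodomain factor Isl1, and asked how the transcriptome changes with that loss. The alleles of the controls and the driver of the conditional knockout are not given in the sources used here. Nothing says that the libraries came from separate animals, so p-values measure only the spread between these samples, which may be technical.

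The respiratory chain moves electrons from NADH and succinate to oxygen. Complexes I and II pass them to ubiquinone, complex III to cytochrome c and complex IV to oxygen. Complexes I, III and IV pump protons across the inner mitochondrial membrane, and complex V uses the gradient to make ATP. All except complex II also hold subunits encoded in mitochondrial DNA, which were not analysed here. Developing retina also makes ATP by glycolysis, and several subunits of complex IV exist as alternative isoforms that differ between tissues or with oxygen supply.

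Isl1 was read first, because it checks the labels. It stood at 242 and 201 TPM in controls 1 and 2, and at 321 and 223 TPM in those labelled Isl1cKO. The values of the groups overlapped, and the targeted gene was not lower in the libraries labelled Isl1cKO, so the labels alone set each direction below. Aligned sequence per library, derived from coverage and FPKM, was 12.6 to 14.3 gigabases, and the depth in reads is unknown. Summed retinal ganglion cell markers were 3855 and 3303 TPM in the controls and 2177 and 1500 TPM in those labelled Isl1cKO. Of these 10 markers, 0 were at 0 and 8 were lower without overlap, against 30% of all genes tested. The others, Isl1 and Pou4f2 (126 and 124 against 135 and 120 TPM), overlapped. Retinal progenitor markers, 4 higher and 4 lower by value, summed to 5959 and 5357 against 4382 and 4746 TPM. Photoreceptor precursor markers summed to 222 and 191 against 193 and 148 TPM. Amacrine and horizontal cell markers summed to 119 and 102 against 133 and 92.3 TPM. Red blood cell markers summed to 2903 and 4168 against 1418 and 204 TPM, with Hbb-bs at 0 in Isl1cKO replicate 2. Lens markers summed to 193 and 236 against 7.74 and 6.36 TPM, with Crygb at 0 in Isl1cKO replicate 1. Microglia markers summed to 43.9 and 44.4 against 57.7 and 66.9 TPM, with 0 of 6 at 0. In tissue RNA, fewer cells of a type and less RNA per cell cannot be told apart, and the part of these shifts in the results below was not tested.

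The subunit genes kept similar levels in all 4 libraries. Their summed TPM was 1.82% and 1.81% of the control libraries (replicates 1 and 2), and 1.80% and 1.74% of those labelled Isl1cKO. The lowest share was that of Isl1cKO replicate 2. No member had an adjusted p-value under 0.05 (limma on log2(TPM + 1), Benjamini-Hochberg over 13984 genes), against 0.493% of all genes tested (0.0286% higher and 0.465% lower). An unadjusted p-value under 0.05 was found for 7 of 81 members, 5 higher and 2 lower. That share was 8.64%, against 12.1% of all genes (3.2% higher and 8.92% lower). This count was 15 without Isl1cKO replicate 1 and 2 without each of the other libraries. The median log2 fold change of the members was -0.05, and that of all genes tested was -0.05 as well. Of the 81 members 57 had a value below 0 (70.4%, against 63.8% of all genes) and 24 above 0 (29.6%, against 36.2%), but after median-ratio scaling of the libraries 42 lay below and 39 above 0.

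The median absolute log2 difference between the groups was 0.07 for members. It was 0.07 between the control replicates and 0.11 between the replicates labelled Isl1cKO. A difference between means of 2 libraries varies less than a difference between single libraries, so these medians are not on an equal footing. Over all genes tested the same 3 medians were 0.11, 0.09 and 0.14. For 75 of the 81 members the 95% interval of the fold change, taken gene by gene, lay within 1.5-fold in either direction. The other 6 were Atp5k, Cox6b2, Cox7a1, Ndufa2, Ndufa4l2 and Ndufc1. Only the interval of Ndufa4l2 reached beyond 2-fold, and Ndufa4l2 was the 1 member of 81 (1.23%) with a fold change of at least 1.5, against 4.98% of all genes. In 28 members (34.6%) the groups did not overlap, against 44.9% of all genes. With the label Isl1cKO 9 lay higher and 19 lower, against 14.9% and 30% of all genes.

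**Figure D1:**
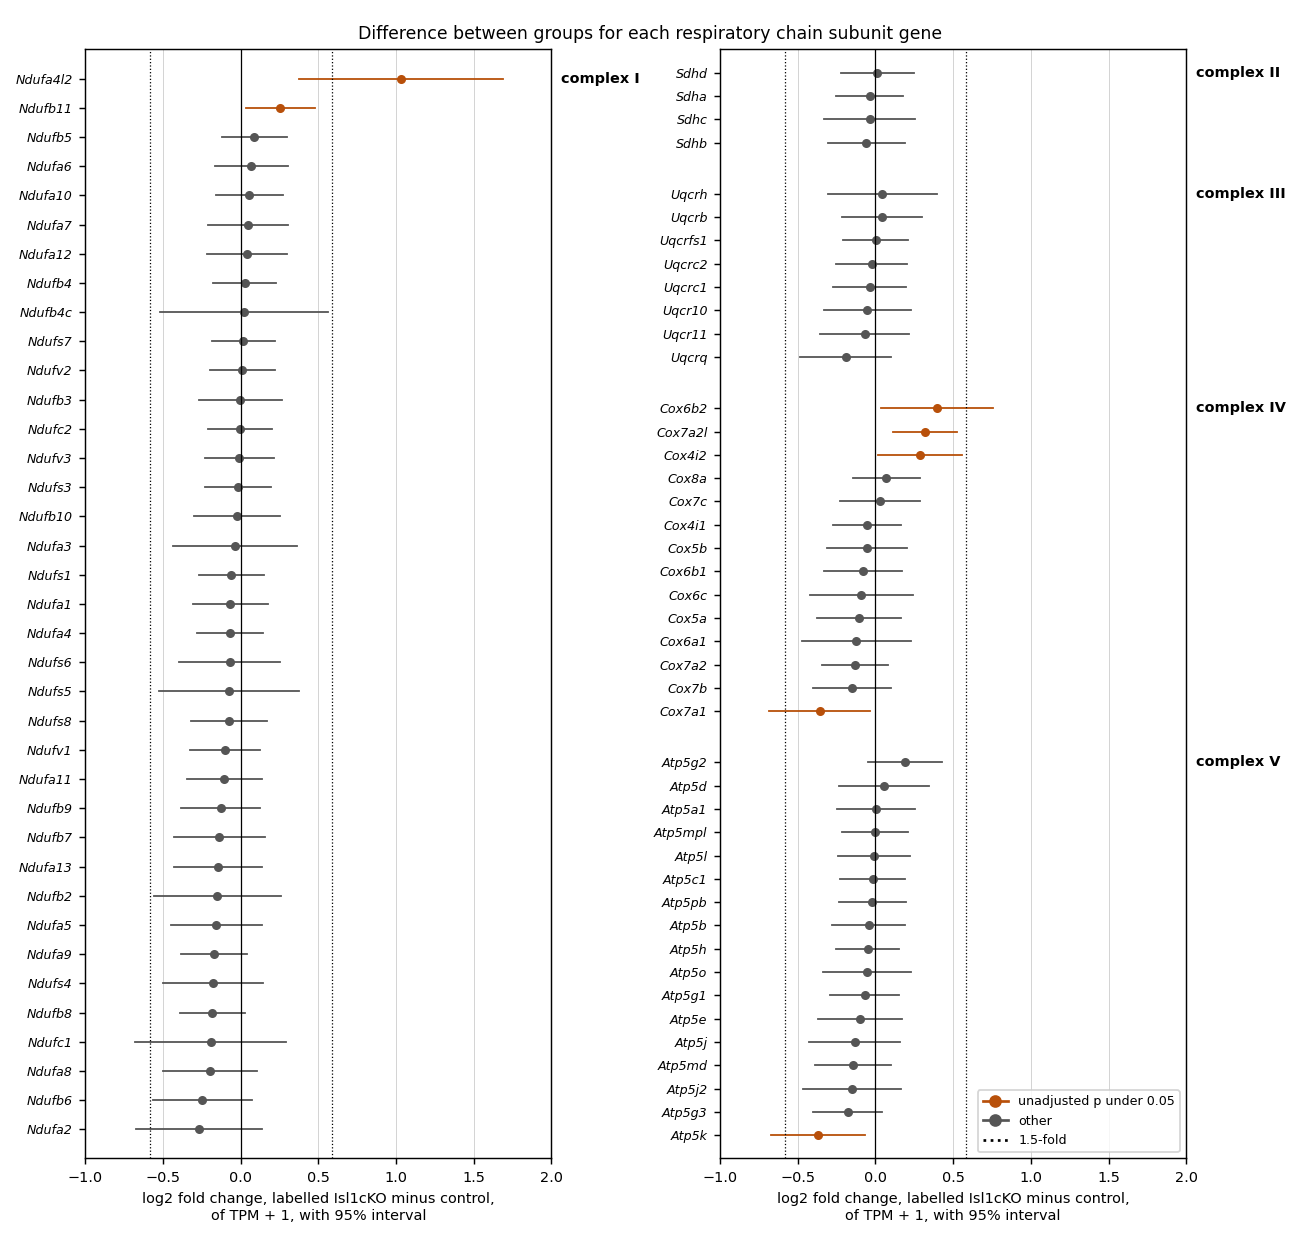
Log2 fold change of TPM + 1 (labelled Isl1cKO minus control, horizontal axis) of 80 tested subunit genes by complex, from 2 libraries a group. Points are limma estimates, lines 95% intervals and dotted lines 1.5-fold; the 7 genes at an unadjusted p-value under 0.05 are in orange, and Ndufa4l2 stands apart at 1.03.

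Levels differed more between complexes than between groups. TPM is scaled to length, so levels are set side by side across genes. How well that scaling holds for short transcripts was not tested, and levels of members with similar copies are uncertain. The median of the members' mean levels was 124 TPM in complex I, 196 in complex II, 178 in complex III, 282 in complex IV and 313 in complex V, against 25.3 TPM over all genes tested. The highest single level was that of Atp5b, the catalytic beta subunit of ATP synthase, with a mean of 1165.5 TPM. The lowest among the tested members was that of Cox7a1, an isoform best known from heart and skeletal muscle, with a mean of 3.94 TPM.

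**Figure D2:**
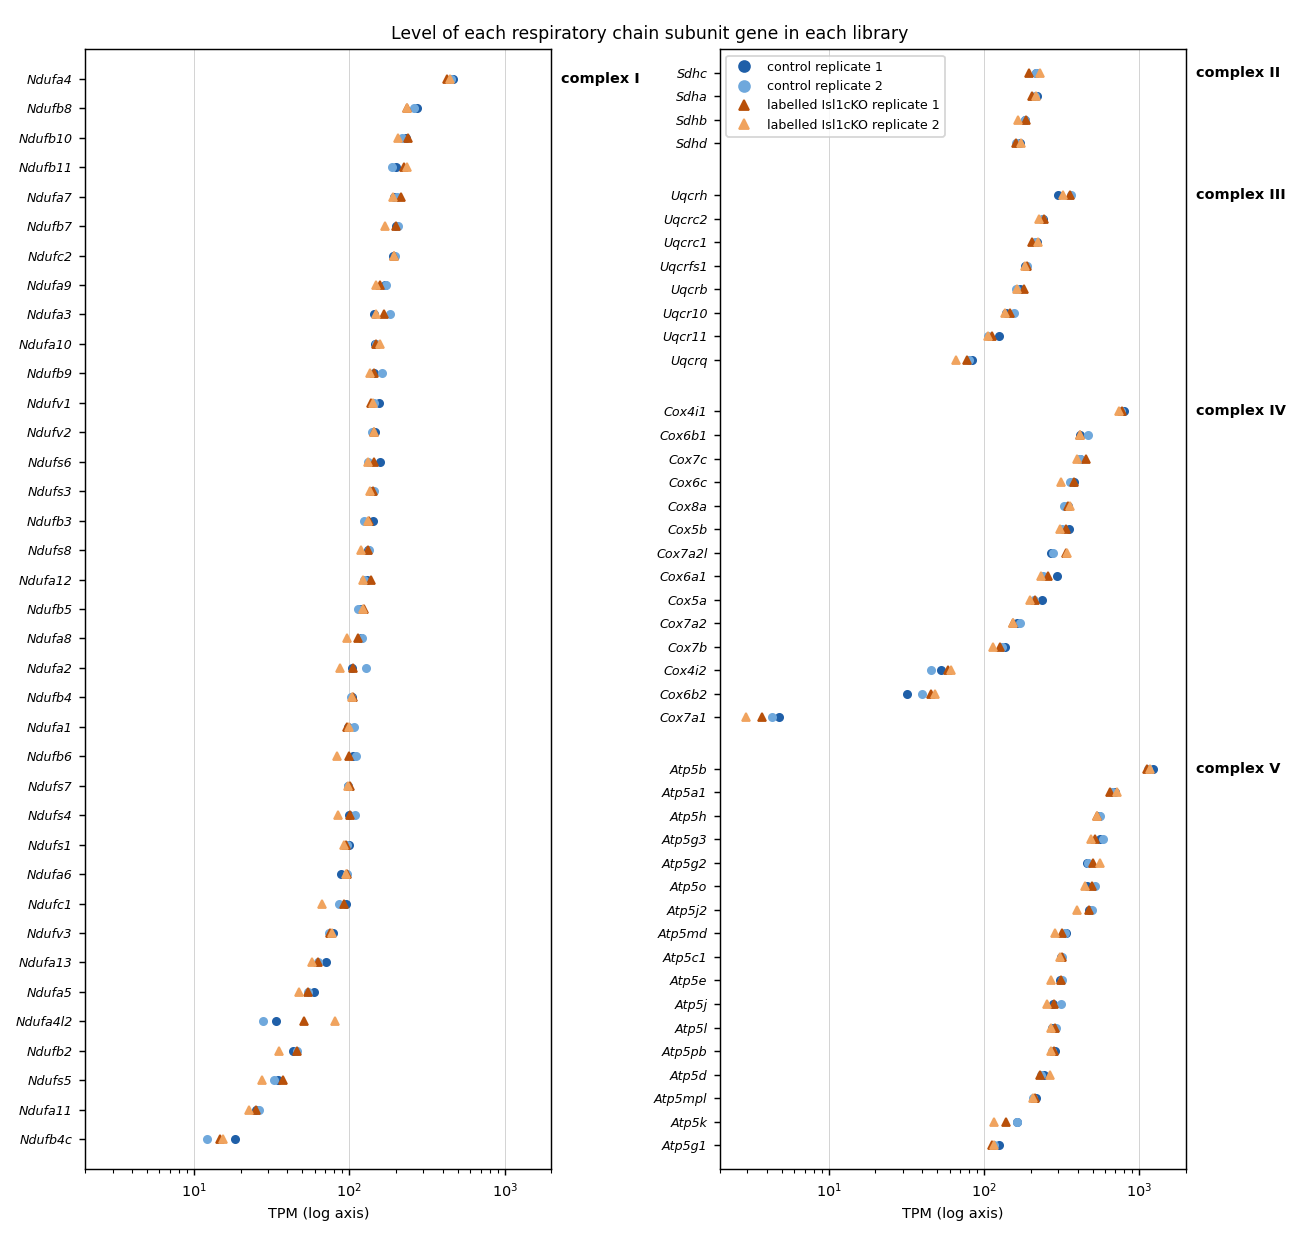
TPM (log axis) of each of 80 tested subunit genes in each of the 4 libraries, grouped by complex and ordered by mean level. Circles are controls and triangles the libraries labelled Isl1cKO; for most genes the 4 points lie close together, while Ndufa4l2 (28.1 to 80.6 TPM) spreads widely.

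Complex I, the NADH dehydrogenase, was covered by 39 genes, of which 38 were tested. Its 7 core genes, whose products carry the flavin and the iron-sulfur clusters, had the lowest mean level in Ndufs1 (95.8 TPM). Their lowest log2 fold change was -0.10 (Ndufv1), with a median of -0.02, which was 0.03 under median-ratio scaling. Ndufv1, which binds NADH, stood at 156 and 145 TPM in control libraries and at 138 and 142 TPM in those labelled Isl1cKO. Ndufs1 stood at 99.1 and 96.6 against 95 and 92.6 TPM. Both were lower without overlap, and neither passed the test (adjusted p-values 0.711 and 0.809 in limma). The log2 fold change of Ndufv1 was -0.05 with control replicate 1 left out and -0.15 with control replicate 2 left out.

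The other 31 tested complex I genes had a median log2 fold change of -0.07, which was -0.02 under median-ratio scaling. Ndufa2 had the lowest log2 fold change. It stood at 104 and 129 TPM in control libraries and at 105 and 87.6 TPM in those labelled Isl1cKO, so the groups overlapped (log2 fold change -0.27, 95% interval -0.68 to 0.14). With 1 library left out it ran from -0.42 (without control replicate 1) to -0.12 (without control replicate 2), and it was -0.14 without Isl1cKO replicate 2. Ndufb8, a membrane arm subunit with the highest level in the complex after Ndufa4, stood at 272 and 262 against 234 and 236 TPM. Its groups were separated, with a log2 fold change of -0.18 (SE 0.08) and an adjusted p-value of 0.466 in limma. Ndufb11, an X-linked subunit singled out after its values were seen, stood at 199 and 188 TPM in control libraries and at 226 and 237 TPM in those labelled Isl1cKO. It was higher without overlap, with a log2 fold change of 0.25 (SE 0.08) and an adjusted p-value of 0.362.

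Ndufa4 and its paralog Ndufa4l2 carry complex I names, although the Ndufa4 protein is now counted with complex IV. Ndufa4l2 (chromosome 10, 127514939 to 127517156, plus strand, build mm10) is a known target of hypoxia-inducible factors, which act when oxygen is low. It stood at 34.0 and 28.1 TPM in controls 1 and 2, and at 51.2 and 80.6 TPM in replicates 1 and 2 labelled Isl1cKO. Both of the latter were higher than either control, and Isl1cKO replicate 2 was the highest. The log2 fold change was 1.03 (SE 0.25, 95% interval 0.38 to 1.69), a 2.05-fold difference, with an unadjusted p-value of 0.0108 and an adjusted p-value of 0.261 in limma. Leaving out Isl1cKO replicate 2 gave 0.71, and leaving out Isl1cKO replicate 1 gave 1.36. Ndufa4 stood at 462 and 452 against 426 and 445 TPM. The share of Ndufa4l2 in the summed TPM of both genes, which does not depend on scaling between libraries, was 6.85% and 5.84% in control and 10.7% and 15.3% in the libraries labelled Isl1cKO.

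The 4 genes of complex II, succinate dehydrogenase, differed least by median absolute value among the complexes, at 0.04 on the log2 scale, and their groups overlapped in all 4. Sdha, the flavoprotein that oxidizes succinate, stood at 218 and 211 TPM in control libraries and at 205 and 214 TPM in those labelled Isl1cKO. Sdhb, the iron-sulfur subunit, stood at 184 and 182 against 186 and 166 TPM. Sdhc and Sdhd anchor the enzyme in the membrane. Sdhc stood at 216 and 218 against 194 and 229 TPM, and Sdhd at 170 and 160 against 161 and 173 TPM. The 4 mean levels lay between 166 and 214 TPM, the narrowest range of the 5 complexes.

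Complex III, the cytochrome bc1 complex, was covered by 8 genes, and 1 of them (Uqcrq) was separated between the groups. Uqcrfs1, the Rieske iron-sulfur protein, stood at 184 and 189 TPM in control libraries and at 189 and 184 TPM in those labelled Isl1cKO, and the 95% interval of its log2 fold change was -0.21 to 0.21. The core proteins followed. Uqcrc1 stood at 220 and 214 against 202 and 221 TPM, and Uqcrc2 at 239 and 238 against 244 and 225 TPM. Uqcrh, the hinge protein, had the highest level and the highest log2 fold change of the complex (0.04), at 299 and 362 against 359 and 321 TPM, with overlapping groups. Uqcrq stood at 83.7 and 79.7 against 77.3 and 65.8 TPM (log2 fold change -0.19, adjusted p-value 0.583 in limma). Leaving out Isl1cKO replicate 2 gave -0.08, and leaving out Isl1cKO replicate 1 gave -0.31.

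Complex IV, cytochrome c oxidase, had 4 of its 14 tested genes (28.6%, against 12.1% of all genes) at an unadjusted p-value under 0.05, which were Cox4i2, Cox6b2, Cox7a1 and Cox7a2l. Of its 18 genes, 4 were not tested. Cox6a2, Cox7b2, Cox8b and Cox8c, isoforms known from muscle, testis or brown fat, were listed at 0 in all 4 libraries. Cox4i1, the general isoform of the regulatory subunit 4, stood at 801 and 761 TPM in control libraries and at 768 and 735 TPM in those labelled Isl1cKO. Its counterpart Cox4i2 (chromosome 2, 152754173 to 152765037), known to be induced by low oxygen in some cells, stood at 52.5 and 45.7 against 58.9 and 61.0 TPM. Cox4i2 was higher without overlap, with a log2 fold change of 0.29 (SE 0.10, 95% interval 0.01 to 0.56) and an adjusted p-value of 0.392 in limma. It was 0.19 with control replicate 2 left out. Its share of the 2 genes' TPM was 6.15% and 5.66% in control and 7.12% and 7.66% in the libraries labelled Isl1cKO.

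Cox6b2, known as the testis isoform of subunit 6b, stood at 31.7 and 40.0 TPM in control libraries and at 45.9 and 48.6 TPM in those labelled Isl1cKO. Its groups did not overlap. The log2 fold change was 0.40 (SE 0.14), with an adjusted p-value of 0.376, and it was 0.23 without control replicate 1 and 0.56 without control replicate 2. The general isoform Cox6b1 stood at 416 and 468 against 417 and 416 TPM, with overlapping groups. The share of Cox6b2 in both was 7.09% and 7.88% against 9.91% and 10.4%. Cox6a1 stood at 295 and 241 against 256 and 233 TPM, and Cox8a at 346 and 326 against 349 and 356 TPM.

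The Cox7a genes differed from each other in sign. Cox7a2l (chromosome 17, 83501917 to 83514333, minus strand) encodes a factor that joins complexes III and IV into a supercomplex. It stood at 269 and 278 TPM in control libraries and at 339 and 343 TPM in those labelled Isl1cKO. The replicates lay close together and the groups did not overlap, with a log2 fold change of 0.32 (SE 0.08, 95% interval 0.11 to 0.52), an unadjusted p-value of 0.0120 and an adjusted p-value of 0.270 in limma. Cox7a2, the general isoform, stood at 163 and 171 against 153 and 153 TPM. Cox7a1 stood at 4.78 and 4.31 against 3.72 and 2.95 TPM, lower without overlap (log2 fold change -0.36, adjusted p-value 0.372, and -0.23 with Isl1cKO replicate 2 left out). Within the 3 genes, the share of Cox7a2l was 61.5% and 61.3% in control and 68.4% and 68.8% in the libraries labelled Isl1cKO, while that of Cox7a2 was 37.4% and 37.8% against 30.8% and 30.6%. With 2 libraries against 2, an exact permutation test of such a share could not give a two-sided p-value under 0.333, and the shares are given as values with no test.

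Complex V, the ATP synthase, had 17 genes, all of them tested. Its catalytic head varied little. Atp5b stood at 1230 and 1136 TPM in control libraries and at 1120 and 1176 TPM in those labelled Isl1cKO. Atp5a1, the alpha subunit, stood at 698 and 666 against 649 and 722 TPM. The groups overlapped in all 5 genes of the head, and their median log2 fold change was -0.02 (0.03 under median-ratio scaling). Among the 4 genes of the stator, the stalk that holds the head still, log2 fold changes ran from -0.13 (Atp5j) to -0.02 (Atp5pb), and 1 of the 4 lay above 0 under median-ratio scaling.

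The membrane ring of subunit c is encoded by 3 genes whose mature products are the same. Atp5g1 stood at 124 and 116 TPM in control libraries and at 113 and 116 TPM in those labelled Isl1cKO. Atp5g2 stood at 458 and 467 against 503 and 553 TPM, and Atp5g3 at 557 and 586 against 518 and 491 TPM. Atp5g2 was thus higher and Atp5g3 lower without overlap, and Atp5g1 was lower by a margin too small to show in these digits. In the order Atp5g2, Atp5g1 and Atp5g3 they had log2 fold changes of 0.19, -0.07 and -0.18 and adjusted p-values of 0.495, 0.798 and 0.491 in limma. That of Atp5g2 was 0.12 with Isl1cKO replicate 2 left out, and that of Atp5g1 ran from -0.12 to -0.02 with a control left out. As a share of the 3 genes, Atp5g2 made up 40.2% and 40.0% in control and 44.4% and 47.7% in the libraries labelled Isl1cKO. Atp5g3 made up 48.9% and 50.1% against 45.7% and 42.3%. All 5 small membrane subunits had values below 0, but 2 of them lay above 0 under median-ratio scaling. Atp5k had the lowest log2 fold change of the complex. It stood at 162 and 164 TPM in control libraries and at 138 and 115 TPM in those labelled Isl1cKO (log2 fold change -0.37, SE 0.11, adjusted p-value 0.342), and the log2 fold change was -0.24 with Isl1cKO replicate 2 left out and -0.50 with Isl1cKO replicate 1 left out.

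**Figure D3:**
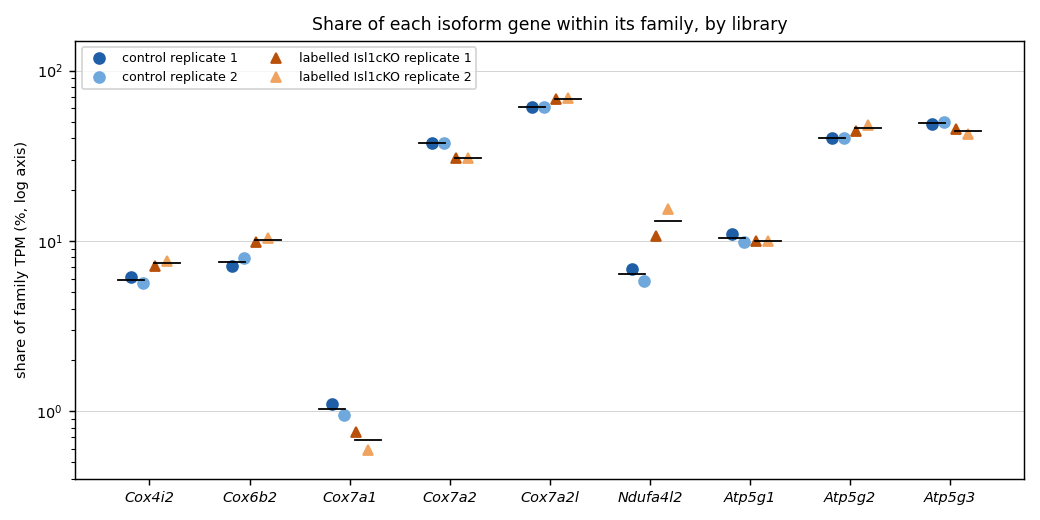
Share of each isoform gene in the summed TPM of its family (percent, log axis) in each library; circles are controls, triangles the libraries labelled Isl1cKO and bars the group means of 2 libraries. Cox4i2, Cox6b2, Cox7a2l, Ndufa4l2 and Atp5g2 have higher shares in both libraries labelled Isl1cKO, Cox7a1, Cox7a2 and Atp5g3 lower ones, and Atp5g1 overlaps.

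The promoters of the members were searched for motifs, as a description with no test. Promoter sequences (RefSeq, build GRCm38.p6, 250 bases before to 50 after each start) were found for 68 of the 86 members, and any of a gene's promoters could match, on either strand. The NRF1 site, read by a factor known to drive respiratory genes, was searched with 1 free base, and its matches are in capitals in the NRF1 windows below. This site was found in 17 members (25.0%), against 11.4% of the tested genes with a promoter and 5.19% of all genes in the table. The YY1 site AAGATGGCG was found in 7 members (10.3%), against 3.40% and 1.64%. The ETS site CCGGAAG, the core read by GABPA, was found in 17 members (25.0%), against 19.4% and 9.93%. The CCAAT box CCAAT (44.1%, against 43.4% and 41.1%) and the TATA box TATAAA (11.8%, against 8.45% and 15.7%) were counted in the same way. The hypoxia-inducible factor cores ACGTG (25.0%, against 29.2% and 21.8%) and GCGTG (54.4%, against 56.2% and 35.2%) were added after values were seen, and can overlap other motifs. Atp5h, Atp5k, Cox6a1 and Sdhd held both an NRF1 and an ETS match. A match is a description of the letters and not a bound site. The windows below show NRF1 and ETS matches of named members that end before the start. Only windows outside the exons of that gene in GENCODE M21 were kept, and other matches are not shown. The members shown had overlapping groups. Windows run 5′ to 3′ on the minus strand of each gene, with the match in capitals:
Cox6a1, NRF1, chr5:115349096-115349135: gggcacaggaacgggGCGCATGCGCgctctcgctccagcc
Cox6a1, NRF1, chr5:115349051-115349090: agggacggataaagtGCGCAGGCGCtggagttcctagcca
Sdha, NRF1, chr13:74350314-74350353: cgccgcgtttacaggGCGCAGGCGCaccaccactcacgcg
Sdhd, NRF1, chr9:50603904-50603943: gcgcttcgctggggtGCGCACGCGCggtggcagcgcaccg
Sdhd, ETS, chr9:50603874-50603910: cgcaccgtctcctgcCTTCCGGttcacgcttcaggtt

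The 2 matches of Cox6a1 end 152 and 107 bases before its start, that of Sdha 88 bases, and those of Sdhd 69 bases (NRF1) and 39 bases (ETS). The NRF1 window of Sdhd lies within the import gene Timm8b (chromosome 9, 50603901 to 50605320, plus strand). Its ETS window crosses the start of Timm8b, so neither window belongs to Sdhd alone. Of the factors themselves, Nrf1 was lower without overlap, as were 30% of all genes tested (log2 fold change -0.10, adjusted p-value 0.738 in limma). The values of Gabpa and Yy1 overlapped between the groups. Nrf1 stood at 57.7 and 52.4 TPM in control libraries and at 50.9 and 51.9 TPM in those labelled Isl1cKO, and Gabpa at 57.1 and 53.3 against 55.5 and 52.1 TPM. Yy1 stood at 67.6 and 66.2 against 63.4 and 66.7 TPM. The members are also short: the median over genes of the GENCODE M21 transcript length was 581 bases for 79 members, against 1402 bases over all genes tested. They lie on 19 chromosomes, 3 of them on X. The 18 members not in the promoter table included Atp5a1, Atp5mpl, Cox4i1, Cox4i2, Cox6a2, Cox6c, Cox8c, Ndufa11b, Ndufa2, Ndufa4l2, Ndufb4c, Ndufb9, Ndufs1, Sdhc, Uqcrb, Uqcrc2 and Uqcrq.

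Other genes of the mitochondrion were read from lists, and none of their members passed the adjusted threshold. Over all genes tested 0.493% passed it in limma, and 12.1% had an unadjusted p-value under 0.05. Of 50 assembly factors, which build the complexes, 19 were higher and 31 lower by value, with a median log2 fold change of -0.02. Under median-ratio scaling 28 were higher and 22 lower, and the regulators, TCA cycle and import lists turned in the same way. Their values ran from -0.24 (Cox18) to 0.61 (Sco2, at 4.45 and 2.13 TPM in the controls and 5.55 and 5.08 TPM in those labelled Isl1cKO, with 0.21 when control replicate 2 and 1.01 when control replicate 1 was left out), and 1 had an unadjusted p-value under 0.05. The 14 genes for cytochrome c and ubiquinone had a median of -0.04, the 14 of the TCA cycle -0.02 and the 23 of mitochondrial import -0.04, with 1, 0 and 0 genes at an unadjusted p-value under 0.05. Of 78 mitochondrial ribosomal genes 38 were higher and 40 lower (51 and 27 under median-ratio scaling), with a median near 0 and 1 at an unadjusted p-value under 0.05. The 4 subunit genes with other names had a median log2 fold change of -0.05, with 2 higher and 2 lower by value. The 2 lower ones, Cyc1 (-0.18) and Atpif1 (-0.12), did not overlap, against 30% of all genes lower in that way. Cyc1, the cytochrome of complex III, stood at 146 and 156 against 134 and 132 TPM. Ndufab1, the acyl carrier subunit of complex I, stood at 142 and 139 against 153 and 138 TPM, with overlapping groups.

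Among 17 tested regulators of mitochondrial biogenesis, 2 had an unadjusted p-value under 0.05, 1 in each direction by value. Ppargc1a, the coactivator known as a driver of biogenesis, was low throughout, at 2.03 and 1.77 TPM in the controls and 2.74 and 2.68 TPM in those labelled Isl1cKO (log2 fold change 0.36, adjusted p-value 0.270 in limma). Polg, the mitochondrial DNA polymerase, stood at 28.7 and 29.6 against 25.5 and 24.4 TPM (log2 fold change -0.22, adjusted p-value 0.397). Tfam, which packages and transcribes mitochondrial DNA, stood at 56.0 and 54.4 against 56.1 and 55.5 TPM. The cytosolic ribosomal proteins, another set of abundant short messages, differed in value from these lists. Of 81 tested, 77 had higher values where the label was Isl1cKO, against 36.2% of all genes. Their median log2 fold change was 0.20. Their share of TPM was 11.6% and 12.7% in control, and 13.7% and 14.3% under the label Isl1cKO. None passed the adjusted threshold in limma. An unadjusted p-value under 0.05 was found for 22, all of them higher, against 3.2% of all genes in that direction. Without overlap, 65 lay higher and 1 lower, against 14.9% and 30% of all genes.

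**Figure D4:**
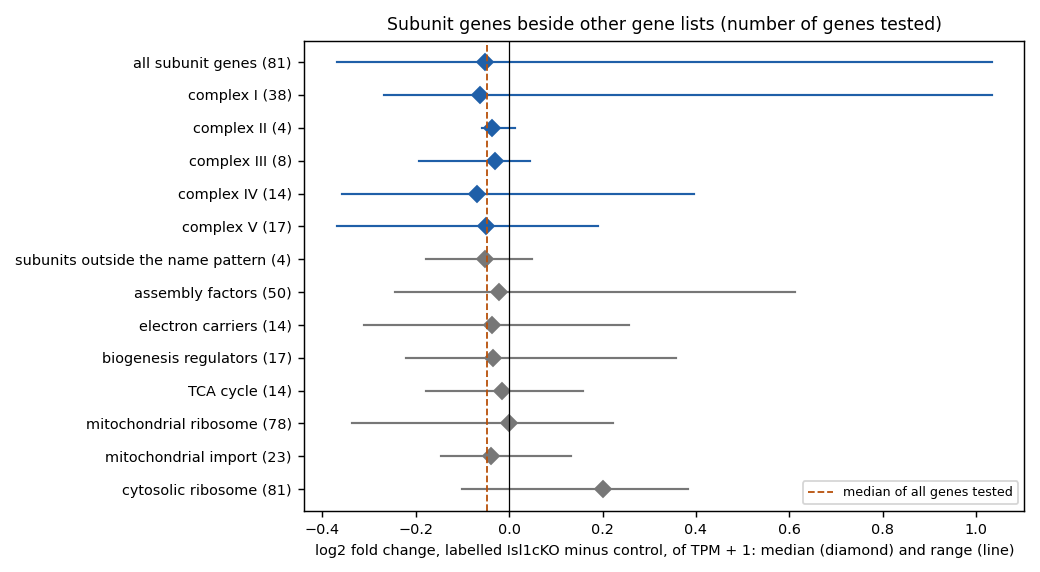
Median (diamond) and range (line) of the log2 fold change of TPM + 1 (labelled Isl1cKO minus control) for the subunit genes, each complex and 8 other lists, with the number of genes tested. The dashed line is the median of all genes tested, -0.05; the subunit genes lie on it, and the cytosolic ribosome lies at 0.20.

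Ndufa4l2 and Cox4i2 were set beside other known targets of hypoxia-inducible factors, a list chosen after their values were seen. Of 9 genes, 8 were tested. All 8 had higher values in both libraries labelled Isl1cKO than in either control, as did 14.9% of all genes tested. None passed the adjusted threshold in limma, while 4 had an unadjusted p-value under 0.05. All 4 were higher, against 3.2% of all genes in that direction. Because of how the list was chosen, these counts are a description with no test. Among the 8, Car9 (0.666 and 1.04 against 1.40 and 1.16 TPM) reached 1 TPM in only 1 control and passed the filter through the libraries labelled Isl1cKO, where it is higher. The gene not tested, Adm, had lower values there (0.176 and 0.128 against 0 and 0.0434 TPM). Pdk1, a kinase that holds pyruvate back from mitochondria, stood at 32.9 and 22.1 TPM in control libraries and at 49.8 and 74.5 TPM in those labelled Isl1cKO. Bnip3, a mitophagy receptor, stood at 53.4 and 42.1 against 76.1 and 122 TPM. As with Ndufa4l2, the values of Pdk1 and Bnip3 were highest in Isl1cKO replicate 2, and for Ndufa4l2 the value without that library is given above. That library also had the lowest red blood cell, ganglion cell and lens marker sums and the highest microglia marker sum. Its aligned sequence was the least, at 12.6 gigabases. The part of any of these differences was not tested. Both subunit genes are also known from pericytes, the mural cells of small vessels. The pericyte marker Kcnj8 (0.135 and 0.143 TPM against 0 and 0) stayed at or below 0.143 TPM and Abcc9 at or below 0.365 TPM. Rgs5 stood at 1.66 and 0.235 against 0.0847 and 0 TPM. Pdgfrb stood at 3.27 and 2.83 against 3.06 and 3.80 TPM, and Notch3 at 38.1 and 39.9 against 43.2 and 44.6 TPM. The 6 markers summed to 43.9 and 43.3 TPM in the controls and 46.7 and 48.7 TPM under the label Isl1cKO. Most of each sum was Notch3, which was higher without overlap. Rgs5 and Kcnj8 were lower without overlap, and Abcc9, Cspg4 and Pdgfrb overlapped.

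Some members have similar copies elsewhere in the genome, and how reads were divided between them was not tested. Ndufs5 stood at 27.4 to 37.6 TPM, while the copy left out by its symbol, Ndufs5-ps on chromosome 16, stood at 126 and 127 TPM in control libraries and at 128 and 127 TPM in those labelled Isl1cKO. The copy Cox7c-ps1 stood at 1.11 to 2.84 TPM. Levels of Ndufs5, of Ndufb4 and its relative Ndufb4c (12.1 to 18.3 TPM), and of other members with processed copies are therefore uncertain. Ndufa11b stood at no more than 0.602 TPM and was not tested.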

How the data were processed

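RNA from 2 control and 2 Isl1cKO retina samples at E13.5 was poly(A)-selected and made into strand-specific libraries, per the labels' protocols. The submitters' processing notes name Trimmomatic, HISAT2, SAMtools, StringTie and DESeq2 and the build mm10; versions and annotation are not given in the sources used here. The authors deposited, per library, TPM, FPKM and mean coverage per base. TPM summed to 1000000 in each library. FPKM entered an alternative only, and coverage served to describe depth. None of these is a count, and count models were left out. TPM were summed over repeated rows of a gene ID. No member was on several rows.

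Genes with at least 1 TPM in at least 2 libraries (13984) were fitted as log2(TPM + 1) with limma 3.58.1 in R 4.3.3, genotype as the only term, with Benjamini-Hochberg adjustment over all of them and a threshold of 0.05. Adjusted p-values come from limma. Fold changes are of TPM + 1, which understates low genes. Intervals are 95% and not adjusted. The model was also run on simulated data with a spread common to all genes, unlike these data, and no statement here rests on that run. Members and lists were chosen with earlier results of these data known; the lists of hypoxia-inducible factor targets and pericyte markers were added after members' values were seen. Named genes were, per complex, the 2 highest, the largest rise and the largest fall, with isoform and catalytic genes; any other was chosen after its values were seen. The alternatives were another pseudocount, other filters, 2 scalings, FPKM, rescaling without haemoglobin and crystallin genes, a variance trend, a replicate block, length and GC correction, genes on several rows left out, and each library left out. Values of 1 subunit gene are not reported here; it stays in all counts and sums, and is left out of the plots of single genes.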

Additional observations from a re-analysis of the deposited data

How the results depend on the processing

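No subunit gene passed the adjusted threshold under any of the 16 alternatives; the lowest adjusted p-value was 0.0694, for Ndufa4l2 without Isl1cKO replicate 1. Where a value moved, the cause was not tested, unless fewer genes or samples entered.

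The count of 69 genes called over all genes was 44 at a pseudocount of 0.1, 15 with no filter, 127 with FPKM, 45 without haemoglobin and crystallin genes, and 110 with a mean-variance trend. It ranged from 10 to 37 when a library was left out, where the lone library is assumed to vary like the other group. Deviations from the group mean had a correlation of 0.126 across genes between same-numbered replicates. The 2 deviations within a group mirror each other, so this value cannot show whether same-numbered samples were paired. The fit with the replicate block called 265 genes, and 289 with length and GC correction and the replicate block; 0 of these were subunit genes.

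Under median-ratio scaling, upper-quartile scaling and FPKM the median log2 fold change of all subunit genes was -0.00328, -0.00358 and -0.00123. That of complex I was -0.0153, -0.0156 and -0.0130. That of complex II was 0.0109, 0.0106 and 0.0129, and that of complex III 0.0167, 0.0164 and 0.0187. All genes tested moved by a like amount, to -0.00251, -0.00276 and 0.00151. Correction for length and GC gave the same values alone and with the replicate block: the median of all was -0.0228 and that of complex II -0.0177, while that of all genes in this fit was 0.000147. Without a library the medians ranged from -0.0777 to -0.00641 for all, -0.0786 to -0.00182 for complex I, and -0.0539 to 0.0300 for complex II.

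The same 3 settings turned the sign of Atp5b (0.00522, 0.00492, 0.00730), Sdha (0.0118, 0.0115, 0.0138), Sdhc (0.0101, 0.00977, 0.0121), Uqcrc1 (0.0103, 0.00997, 0.0123) and Uqcrc2 (0.0231, 0.0228, 0.025). Correction for length and GC, alone or with the replicate block, gave Uqcrc2 0.0137. Uqcrfs1 was -0.0034 without haemoglobin and crystallin genes. With a library left out the sign also turned, within these ranges: Atp5a1 -0.0715 to 0.0818, Atp5b -0.101 to 0.0146, Cox6a1 -0.268 to 0.0217, Cox6b1 -0.167 to 0.00378, Sdhb -0.139 to 0.0217, Sdhc -0.158 to 0.0822, Sdhd -0.038 to 0.0628, Uqcrc1 -0.100 to 0.0247, Uqcrc2 -0.0833 to 0.0334, Uqcrfs1 -0.0202 to 0.0224, Uqcrh -0.0937 to 0.182. Ndufa4l2, Cox4i2, Cox6b2 and Cox7a2l kept their direction throughout. Depth in reads is unknown, so no counting error could be given for low genes such as Cox7a1.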
